A study of Bos taurus with 6 samples.

Results

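The proteasome subunit genes of cattle were examined in cultured fat cells or their precursors that had been given additional bta-miR-484. They were taken as every gene of the deposited expression table whose symbol starts with PSM, then a letter from A to G, then a digit, which gave 49 of 23475 genes. Of these, 48 encode components of the proteasome or its helpers, namely 19 core genes (PSMA and PSMB), 20 regulatory genes (PSMC and PSMD), 4 activator genes (PSME) and 5 others (the inhibitor PSMF1 and the chaperones PSMG1 to PSMG4). The remaining gene, PSMC3IP, matched the symbol rule but encodes a factor of meiotic recombination named for its binding to PSMC3, and it was kept apart. RNA was sequenced from cultured cells of bovine subcutaneous fat, 3 libraries with the bta-miR-484 agomir and 3 with the agomir NC. The agomir is a modified duplex RNA supplied to increase this miRNA, and the agomir NC is the negative control that lacks its sequence. All 6 samples were collected at 48 h of transfection, so both groups had been through transfection and no untransfected cells were compared. The labels call the cells adipocytes, as does the study's account of the RNA sequencing. Its account of the isolation, in contrast, describes preadipocytes taken with collagenase from calf fat. For its proliferation and differentiation assays the study says that preadipocytes were transfected, and it places the induction of differentiation after transfection. The stage at transfection of the cells that were sequenced is not stated in that detail and so is uncertain. It is not stated if separate calves or separate cultures gave the 3 samples of each group, so p-values measure only the spread between these samples, which may be technical.

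The proteasome is the protease that degrades proteins tagged with chains of ubiquitin. Its core is a barrel in which outer rings of alpha subunits (PSMA) gate the entrance and inner rings of beta subunits (PSMB) hold the catalytic sites, and a regulatory particle on the barrel's end binds, unfolds and feeds in the substrate through a base with a ring of ATPases (PSMC) and a lid (the base and the lid share the PSMD genes). Cells exposed to interferon can exchange the catalytic beta subunits for immunoproteasome forms and can cap the barrel with an activator (PSME) in place of the regulatory particle, while in fat cells the pathway is known for the turnover of regulators of differentiation such as the PPARG protein.

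The values were FPKM, in which fragments are scaled by the length of the transcript and by the library's mapped total, so levels of different genes could be set side by side per length. The FPKM total over all genes ranged from 365977 to 379361 between libraries, and the number of reads behind them is unknown. Values per library are given in the order of replicates 1, 2 and 3. The most abundant of the cell type markers were mesenchymal. The 8 mesenchymal markers summed to between 23219 and 24388 FPKM in every library, with COL3A1 the most abundant at a mean of 7623 FPKM. Markers of mature adipocytes were low, as ADIPOQ did not pass 0.197 FPKM, CIDEC 0.230 FPKM and LEP 0.0368 FPKM in any library, while PLIN1 ranged from 0.974 to 1.56 FPKM and FABP4 was the most abundant of the 5 at a mean of 2.39 FPKM. Of the 4 preadipocyte markers, DLK1 was listed at 0 in every library and ZNF423 was the most abundant at a mean of 5.65 FPKM. The immune marker PTPRC and the endothelial marker PECAM1 reached at most 0.119 and 0.147 FPKM. Immune markers, of which CD14 was the most abundant at a mean of 6.27 FPKM, summed to between 6.80 and 8.10 FPKM over 4 genes, and endothelial markers, led by VWF at a mean of 3.39 FPKM, to between 3.14 and 3.97 FPKM over 4 genes. The 4 mural markers summed to between 196.8 and 220.2 FPKM, nearly all from ACTA2 (mean 206.6 FPKM), which cultured fibroblastic cells also express, while RGS5 was listed at 0 in all libraries but agomir replicate 3 (0.0816 FPKM).

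Of the 6 libraries, 1 stood apart in the proteasome genes and 1 in the genes UBB and RPS27A. Agomir NC replicate 2 held the lowest value of 24 of the 46 components tested (52.2%), whereas it held the lowest value of 21.4% of all genes tested. The other 5 libraries held the lowest value of between 2 and 7 components. The components of agomir NC replicate 2 lay at a median of −0.072 from their gene's mean on the log2 scale, against −0.016 for all genes tested in that library. Agomir replicate 3 did not stand apart in the proteasome genes themselves, but UBB and RPS27A, which encode ubiquitin, were far lower there than in any other library. Over all genes tested, agomir replicate 2 held the highest value of 24.0%, agomir NC replicate 3 of 19.4% and each other library of between 13.8% and 14.4%. Agomir replicate 2 and agomir NC replicate 3 held the highest value of 11 and 12 components.

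Nearly all proteasome genes were abundant. The tested genes, those averaging 0.5 FPKM or more across libraries, numbered 12422 and took in 46 of the 48 components. The median of these 46 was 46.5 FPKM and the range of their means 11.5 to 139.7 FPKM, against a median of 8.36 FPKM over all genes tested, and even the lowest component lay at percentile 59.9 of all genes tested. The components under that filter are forms restricted to other tissues. PSMA8, the alpha subunit of the male germ line, took values of 0, 0.0690 and 0.158 FPKM under the agomir and 0.0392, 0 and 0.0859 FPKM under the agomir NC. PSMB11, the beta subunit of the thymic cortex, was listed at 0 in all 6 libraries. The germ cell marker DDX4 was listed at 0 as well, SYCP1 did not pass 0.0521 FPKM, and the thymic epithelial marker FOXN1 did not pass 0.0167 FPKM, although CCL25, the other thymic marker, had a mean of 1.88 FPKM. PSMC3IP was low, with 2.06, 1.26 and 1.64 FPKM in the agomir group and 1.84, 1.10 and 2.18 FPKM in the agomir NC group, and its groups overlapped.

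**Figure D1:**
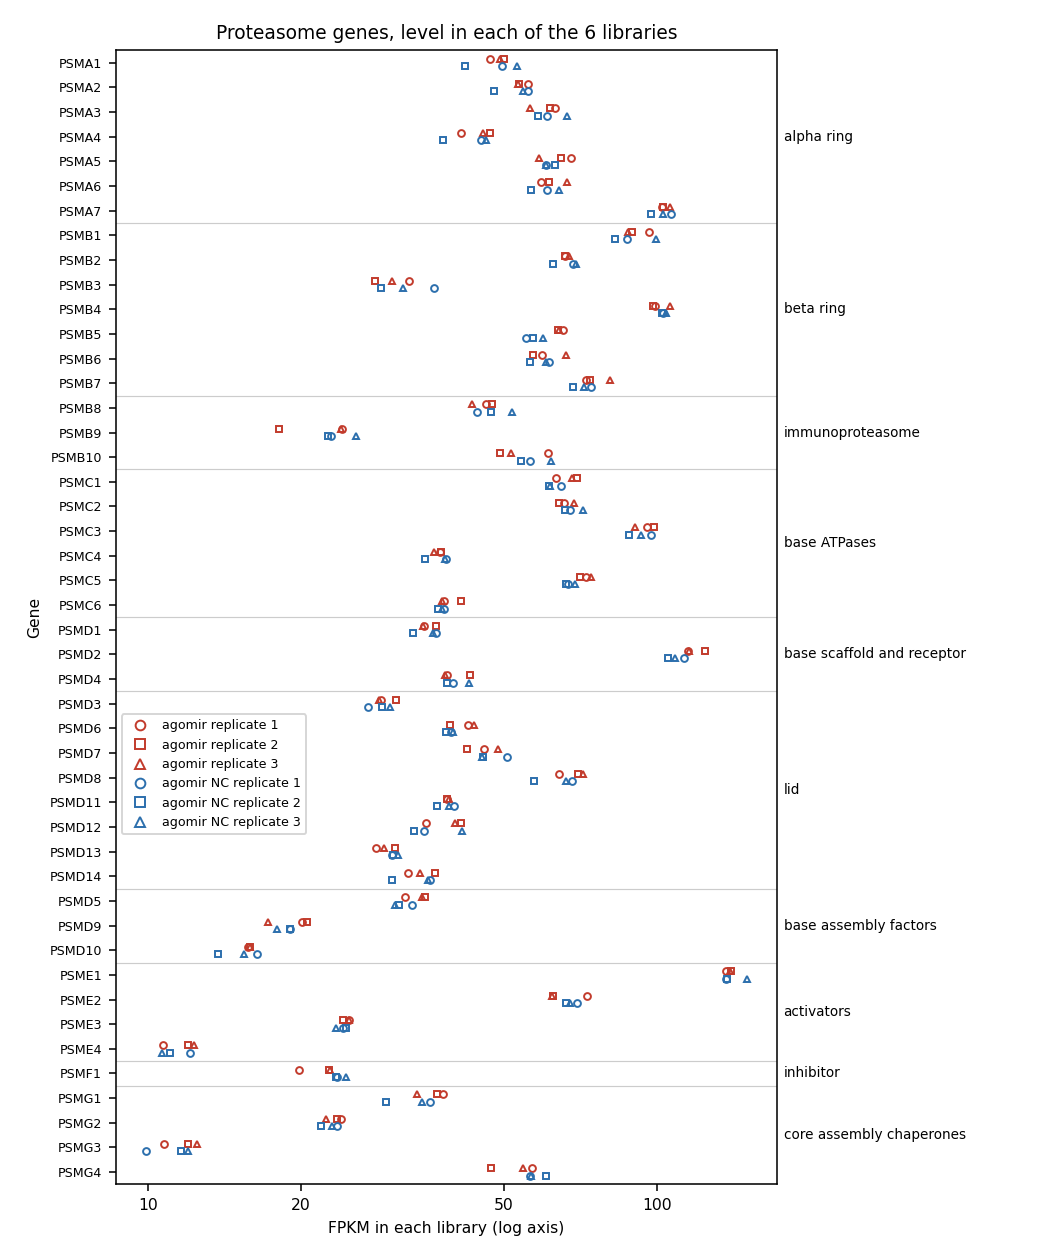
Level of each of the 46 proteasome genes tested, in FPKM on a log axis, with 1 symbol per library (red, agomir; blue, agomir NC; circle, square and triangle for replicates 1, 2 and 3) and genes ordered by role. PSME1 is the highest gene in every library, and the blue squares of agomir NC replicate 2 are the lowest symbol of 24 genes.

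PSME1 ranked first and PSMD2 second among the 46 components in each of the 6 libraries. PSMD10 ranked 44 in every library, and PSMG3 and PSME4 took ranks 45 and 46. In the middle of the order, PSME2 took ranks from 7 to 16, PSMB5 from 13 to 21 and PSMG4 from 14 to 23. The neighbours PSMA7 and PSMB4, with means of 102.8 and 102.0 FPKM, exchanged places between libraries, and their difference was not tested.

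The agomir and agomir NC groups were compared on log2(FPKM + 0.5) with limma's moderated test, and fold changes are agomir minus agomir NC on this scale, which understates differences of genes at low FPKM. With p-values from limma adjusted by Benjamini-Hochberg over all 12422 genes, 0 of the 46 components were under 0.05, where the share of all genes tested was 0.00805%. At an unadjusted p under 0.05, 3 of 46 components were higher with the agomir (PSMB5, PSMC5 and PSMD2) and 0 were lower. The same call took in 6.63% of all genes tested as higher and 4.31% as lower, so the count of the components was near that of genes at large. The groups did not overlap in 3 components that were higher, again PSMB5, PSMC5 and PSMD2, and in 1 that was lower, PSMF1, whereas 10.9% of all genes tested were higher and 6.36% lower without overlap. In bulk RNA, a difference in the make-up of the cells and a difference in RNA per cell cannot be told apart.

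The fold changes of the components were small. They ranged from −0.13 to 0.17, 30 were positive and 16 negative, and their median was 0.032 beside 0.013 over all genes tested, of which 55.1% were positive. The 95% interval lay inside a 1.5-fold change in either direction for 46 of 46 components and for 92.9% of all genes tested. Intervals of the components had a median half-width of 0.13, against 0.19 for all genes tested. By group, the median fold change was 0.021 over 17 core genes, 0.038 over 20 regulatory genes, 0.0043 over 4 activator genes and 0.031 over the 5 others. Without agomir NC replicate 2 these medians were −0.037, 0.012, −0.0062 and 0.0030 in the same order.

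The sign of the components' median rested on the library that stood apart. Without agomir NC replicate 2 the median was −0.018, beside 0.0091 for all genes tested, and PSMB5 was the 1 component at an unadjusted p under 0.05, where 5.28% of all genes tested were higher and 4.29% lower. Without agomir replicate 1, 4 components were higher at that p (PSMB5, PSMC1, PSMD2 and PSMD5) and 3 were lower (PSMB10, PSME2 and PSMG4), where 5.82% of all genes tested were higher and 4.00% lower. Scaling mattered as well, since median-ratio scaling placed 5.29% of all genes tested as higher and 5.68% as lower, and 2 components as higher (PSMB5 and PSMD2) and 1 as lower (PSMF1).

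Summed over all components, the FPKM of the agomir libraries was 2396, 2397 and 2406, and that of the agomir NC libraries was 2395, 2264 and 2435. The agomir sums lay close together and inside the range of the agomir NC sums. As a share of all FPKM of a library, the proteasome genes took 0.651%, 0.652% and 0.655% with the agomir and 0.648%, 0.619% and 0.642% with the agomir NC. These shares did not overlap, but the highest agomir NC share was close below the lowest agomir share, and the lowest of the 6 belonged to agomir NC replicate 2. All genes tested lay at a median of 0.0027, 0.021 and 0.0053 from their gene's mean with the agomir and −0.0030, −0.016 and 0.0022 with the agomir NC, also without overlap. Genes above 0 numbered 16255, 16207 and 16219 with the agomir and 16312, 16360 and 16300 with the agomir NC. The part of these measures in the shares was not tested. Groups of 3 that do not overlap have p = 0.1 in the two-sided exact permutation test, the smallest it can give.

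**Figure D2:**
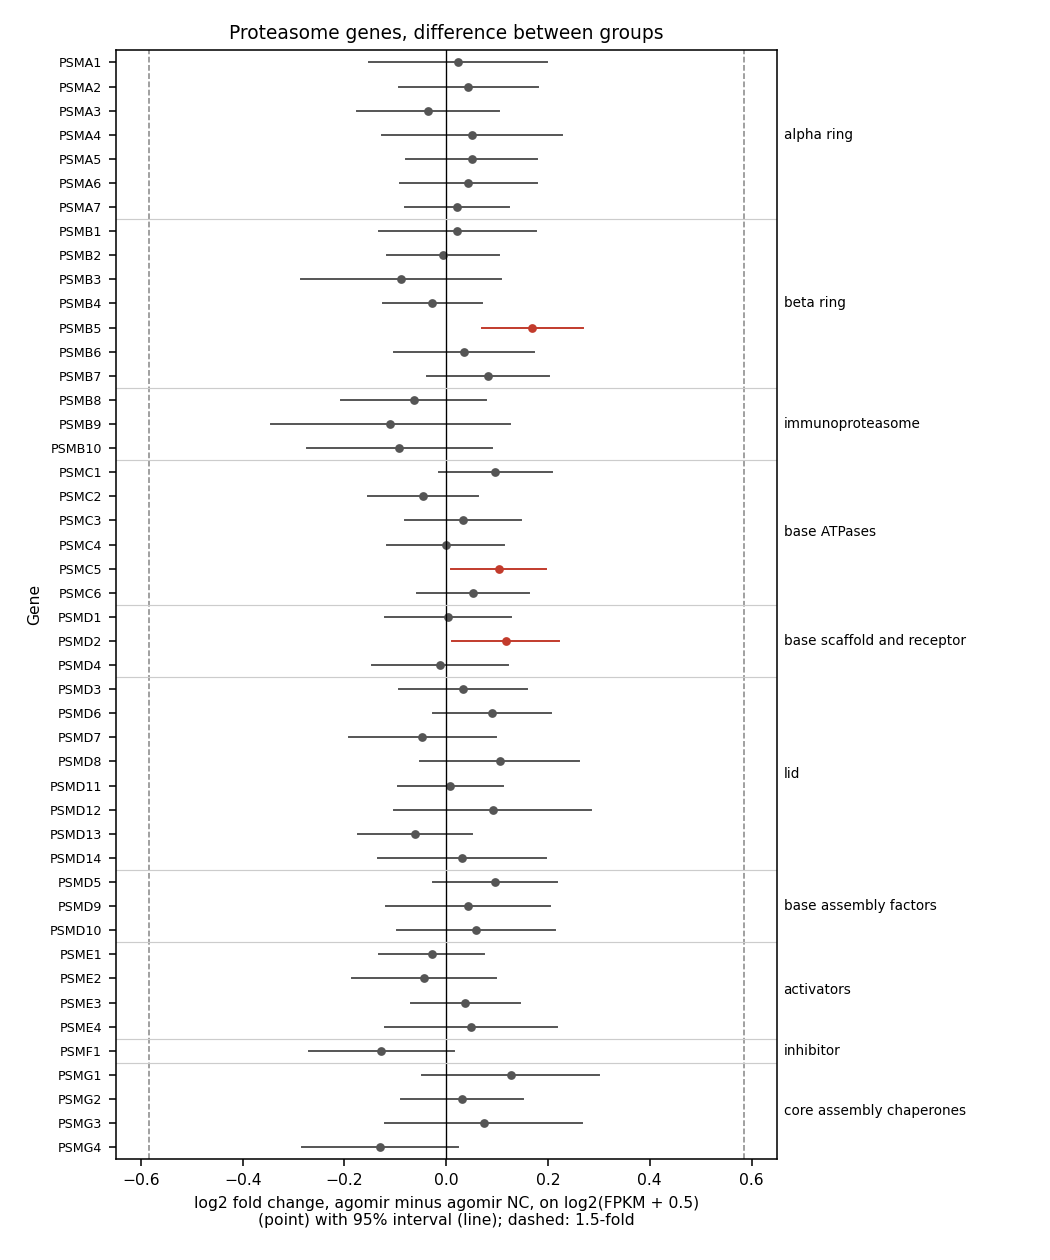
Difference between agomir and agomir NC for the 46 proteasome genes tested, as the log2 fold change on log2(FPKM + 0.5) (points) with its 95% interval (lines), 3 libraries per group. Red marks the 3 genes at an unadjusted p under 0.05, dashed lines mark a 1.5-fold change, and all 46 intervals lie between the dashed lines.

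The 7 tested genes of the alpha ring had means between 43.7 and 102.8 FPKM, and none of them was at an unadjusted p under 0.05 in either direction. PSMA7, the most abundant, had values of 102.0, 102.7 and 106.0 FPKM in the agomir group and 106.5, 97.2 and 102.7 FPKM in the agomir NC group. PSMA4, the least abundant, stood at 41.1, 46.9 and 45.4 FPKM under the agomir and 45.0, 37.9 and 46.1 FPKM under the agomir NC. In both genes agomir NC replicate 2 was the lowest library and the groups overlapped, and this library was the lowest for 5 of the 7 alpha genes. Fold changes in the ring ran from −0.036 (PSMA3) to 0.051 (PSMA4), with 6 of 7 positive, and 1 of 7 without agomir NC replicate 2. Those of PSMA7 and PSMA4 were negative, at −0.014 and −0.037, without agomir NC replicate 2.

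In the beta ring, 7 genes form the constitutive barrel. PSMB4, a subunit without a catalytic site, was the most abundant with 99.1, 98.0 and 106.1 FPKM in the agomir group and 102.6, 102.0 and 104.2 FPKM in the agomir NC group. Its agomir NC values lay between the agomir values, so the groups overlapped. The catalytic subunits are PSMB5, PSMB6 and PSMB7, and PSMB5 had the smallest unadjusted p of the 46 components.

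PSMB5 carries the chymotrypsin-like site, the main target of proteasome inhibitor drugs. It read 65.4, 63.8 and 64.1 FPKM in the agomir libraries and 55.3, 56.9 and 59.7 FPKM in the agomir NC libraries. Every agomir library lay above every agomir NC library, and the agomir values were the tighter group, with means of 64.4 ± 0.872 and 57.3 ± 2.22 FPKM (SD, n = 3 each). This gave a log2 fold change of 0.17 (standard error 0.044, 95% interval 0.070 to 0.27), the largest positive value among the 46 components. Limma gave it an unadjusted p of 0.0037 and, with Benjamini-Hochberg adjustment, an adjusted p of 0.288, so it did not pass the test over all genes. Without any single library the fold change lay between 0.14 and 0.20, and its unadjusted p stayed under 0.05 in each of the 15 alternative settings tried. PSMB5 overlaps PSMB11 in the annotation, and PSMB11 was listed at 0 throughout.

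PSMB6, with the caspase-like site, had values of 59.4, 56.9 and 66.1 FPKM in the agomir group and 61.2, 56.4 and 60.4 FPKM in the agomir NC group. PSMB7, with the trypsin-like site, stood at 72.4, 73.7 and 80.7 FPKM under the agomir and 74.0, 68.2 and 71.7 FPKM under the agomir NC. Both had their highest value in agomir replicate 3 and groups that overlapped. Their log2 fold changes were 0.034 (95% interval −0.10 to 0.17) and 0.082 (95% interval −0.039 to 0.20), and that of PSMB6 was −0.027 without agomir replicate 3 and −0.0019 without agomir NC replicate 2. That of PSMB7 ranged from 0.034 to 0.11 when each library was left out. The difference of PSMB5 from PSMB6 and PSMB7 was not tested.

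The 3 immunoproteasome genes were expressed well above 0 in all libraries, and all 3 fold changes were negative. PSMB8, which replaces PSMB5, read 46.2, 47.4 and 43.3 FPKM in the agomir libraries and 44.4, 47.1 and 52.0 FPKM in the agomir NC libraries. PSMB9, which replaces PSMB6, had values of 24.1, 18.1 and 24.0 FPKM in the agomir group and 22.8, 22.5 and 25.6 FPKM in the agomir NC group. PSMB10, which replaces PSMB7, stood at 61.0, 49.2 and 51.6 FPKM under the agomir and 56.2, 54.0 and 61.9 FPKM under the agomir NC. For each of the 3 genes the highest library was agomir NC replicate 3, agomir replicate 2 was lowest for PSMB9 and PSMB10, and the groups overlapped. The log2 fold changes were −0.064, −0.11 and −0.092, with 95% intervals that reached from −0.35 to 0.12 for the widest, PSMB9. The fold change of PSMB9 was 0.023 without agomir replicate 2, so its sign rested on that library. PSMB8 fell to −0.0030 without agomir NC replicate 3, and PSMB10 was −0.030 without agomir replicate 2 and −0.18 without agomir replicate 1, so the sizes rested on single libraries as well.

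Each immunoproteasome gene was also set against its constitutive partner within a library, and the groups did not overlap in 1 of the 3 pairs. Of all single genes tested, 10.9% were higher and 6.36% lower without overlap. No such share is given for ratios of genes, so this count cannot be set against genes at large. The ratio of PSMB8 to PSMB5 was 0.706, 0.743 and 0.676 with the agomir and 0.803, 0.827 and 0.871 with the agomir NC. All agomir ratios were lower than all agomir NC ratios, with means of 0.708 ± 0.0333 and 0.834 ± 0.0346 (SD, n = 3 each, exact two-sided permutation p = 0.1, the smallest possible). PSMB8 itself overlapped between groups and PSMB5 did not. Whether the pairs differ from each other was not tested. The ratio of PSMB9 to PSMB6 was 0.405, 0.318 and 0.362 with the agomir and 0.373, 0.400 and 0.425 with the agomir NC. The ratio of PSMB10 to PSMB7 was 0.843, 0.668 and 0.640 with the agomir and 0.759, 0.791 and 0.863 with the agomir NC. In both of these pairs agomir replicate 1 lay among the agomir NC libraries.

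**Figure D3:**
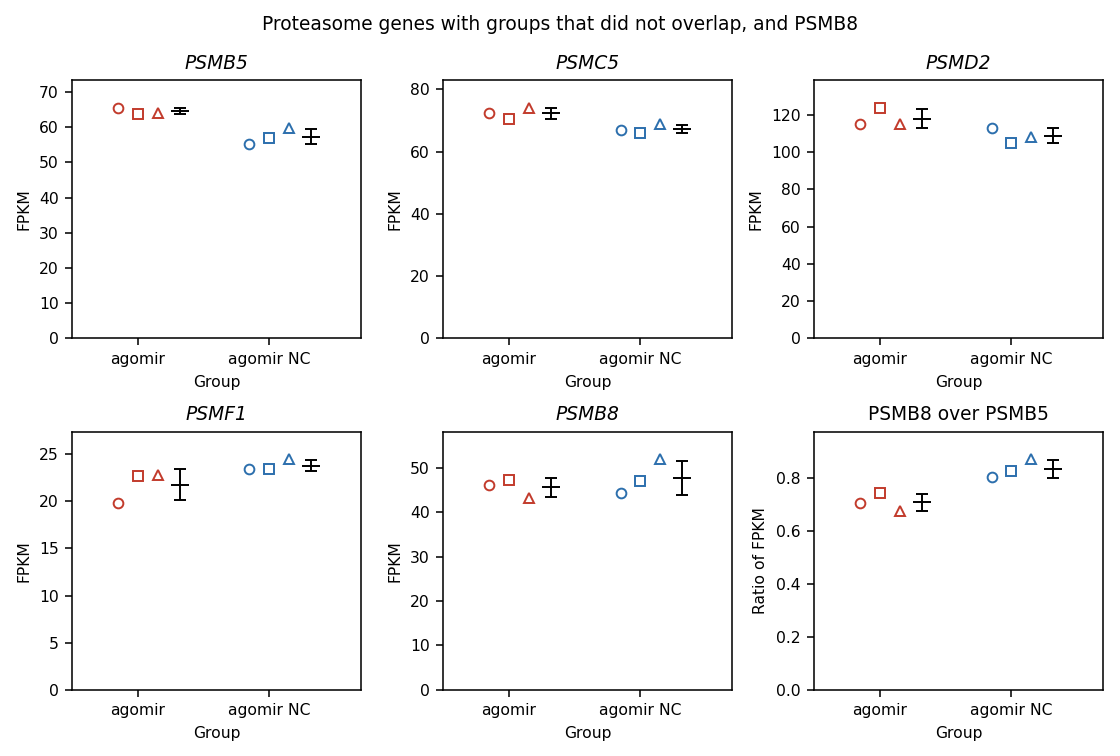
FPKM of PSMB5, PSMC5, PSMD2, PSMF1 and PSMB8 and the ratio of PSMB8 to PSMB5 in each library (circle, square and triangle for replicates 1, 2 and 3; red, agomir; blue, agomir NC), with the mean and SD of the 3 libraries of a group in black and axes that start at 0. The groups do not overlap in PSMB5, PSMC5, PSMD2, PSMF1 or the ratio, and they overlap in PSMB8.

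Immunoproteasome genes work with those that load peptides on class I molecules, and PSMB8 and PSMB9 have the peptide transporter gene TAP1 between them in the annotation. From the antigen processing list 11 genes are reported, all of them tested, and 0 passed an adjusted p of 0.05 by limma with Benjamini-Hochberg adjustment. TAP1 had values of 12.2, 10.8 and 11.8 FPKM in the agomir group and 12.2, 12.5 and 13.9 FPKM in the agomir NC group, so its groups overlapped in 1 pair of nearly equal values. The median log2 fold change of the 11 genes was −0.0068.

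Among the 20 regulatory genes, 15 fold changes were positive and 5 negative, where 55.1% of all genes tested were positive. PSMC5 and PSMD2 were higher at an unadjusted p under 0.05 by limma, as were 6.63% of all genes tested. Agomir NC replicate 2 was the lowest library for 13 of the 20, and without it 10 fold changes were positive and 10 negative. In the ring of ATPases, PSMC3 was the most abundant gene, at 95.4, 98.5 and 90.5 FPKM in the agomir group, against 97.3, 88.0 and 92.8 FPKM in the agomir NC group. PSMC4 was the least abundant, with 37.5, 37.6 and 36.5 FPKM in the agomir group and 38.5, 35.0 and 38.2 FPKM in the agomir NC group. In both, agomir NC replicate 2 was the lowest library and the groups overlapped. Their log2 fold changes were 0.033 (95% interval −0.081 to 0.15) and −0.0011 (95% interval −0.12 to 0.11), and that of PSMC3 was −0.0037 without agomir NC replicate 2.

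PSMC5, another ATPase of the ring, stood at 72.4, 70.5 and 74.0 FPKM under the agomir and 66.8, 66.1 and 68.8 FPKM under the agomir NC. The groups did not overlap, with means of 72.3 ± 1.75 and 67.2 ± 1.41 FPKM (SD, n = 3 each). This gave a log2 fold change of 0.10 (standard error 0.042, 95% interval 0.010 to 0.20), and limma's unadjusted p was 0.0330 and its Benjamini-Hochberg adjusted p 0.412. The unadjusted p by limma was 0.0771 without agomir replicate 1, 0.125 without agomir replicate 3, 0.0732 without agomir NC replicate 1 and 0.0811 without agomir NC replicate 2, and it was 0.0618 with median-ratio scaling, 0.0539 with the replicate block and 0.0942 without the variance trend. The fold change stayed between 0.087 and 0.12 when each library was left out in turn.

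PSMD2 encodes a scaffold of the base on which ubiquitin receptors and shuttle proteins dock, and it was the most abundant regulatory gene. It read 114.9, 123.8 and 115.5 FPKM in the agomir libraries and 113.1, 105.1 and 108.4 FPKM in the agomir NC libraries. The lowest agomir value was just above the highest agomir NC value, and agomir replicate 2 was the highest library and agomir NC replicate 2 the lowest. The log2 fold change was 0.12 (standard error 0.047, 95% interval 0.012 to 0.22), with an unadjusted p of 0.0326 and a Benjamini-Hochberg adjusted p of 0.409 by limma. Its unadjusted p by limma was 0.129 without agomir replicate 2, 0.0986 without agomir NC replicate 2 and 0.0608 without agomir NC replicate 3, and it was 0.0549 with the replicate block and 0.0968 without the variance trend. PSMC5 and PSMD2 overlap no other annotated gene.

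The PSMD partners of PSMD2 in the base overlapped between the groups. The scaffold PSMD1 and the ubiquitin receptor PSMD4 had means of 35.4 and 40.2 FPKM over the 6 libraries and log2 fold changes of 0.0033 and −0.012. The 8 lid genes, which include the deubiquitinase PSMD14, had means between 28.9 and 66.2 FPKM, and their fold changes ranged from −0.061 (PSMD13) to 0.11 (PSMD8). None of the 8 was at an unadjusted p under 0.05. The factors that help to assemble the base, PSMD5, PSMD9 and PSMD10, had 3 positive fold changes between 0.043 and 0.096, of which 2 stayed positive without agomir NC replicate 2. PSMD10, the lowest regulatory gene, had values of 15.7, 15.9 and 15.8 FPKM in the agomir group and 16.4, 13.8 and 15.5 FPKM in the agomir NC group. Its agomir libraries were almost equal and lay inside the spread of the agomir NC libraries, and its fold change of 0.059 was −0.0093 without agomir NC replicate 2.

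The activator genes ranged in level from the highest component to nearly the lowest, and 0 of the 4 were at an unadjusted p under 0.05 by limma. PSME1, which forms a ring with PSME2 that opens the core without ATP, stood at 136.5, 139.4 and 138.9 FPKM under the agomir and 136.4, 137.2 and 150.0 FPKM under the agomir NC. PSME2 read 72.8, 62.4 and 62.1 FPKM in the agomir libraries and 69.6, 66.1 and 67.3 FPKM in the agomir NC libraries. PSME1 was highest in agomir NC replicate 3 and PSME2 in agomir replicate 1, and the groups overlapped in both. The ratio of PSME1 to PSME2 was 1.88, 2.23 and 2.24 with the agomir and 1.96, 2.08 and 2.23 with the agomir NC, so PSME1 was the higher of the pair in every library and the ratios overlapped. In the annotation these genes are neighbours, with EMC9 between them and overlapping PSME1.

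PSME3, the nuclear activator that forms a ring of its own, had values of 24.9, 24.2 and 24.9 FPKM in the agomir group and 24.1, 24.5 and 23.4 FPKM in the agomir NC group. PSME4, a large activator of a single chain known from chromatin and sperm development, stood at 10.7, 12.0 and 12.3 FPKM under the agomir and 12.1, 11.1 and 10.7 FPKM under the agomir NC. The groups overlapped in both genes. The 4 log2 fold changes were −0.029, −0.045, 0.037 and 0.048 for PSME1 to PSME4, and their 95% intervals all reached across 0, at the widest from −0.12 to 0.22 for PSME4. When each library was left out in turn they ranged from −0.053 to 0.015 for PSME1, from −0.12 to −0.0056 for PSME2, from 0.020 to 0.051 for PSME3 and from 0.0096 to 0.11 for PSME4.

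PSMF1, an inhibitor of the core in the test tube, was the 1 component whose values were lower with the agomir without overlap. It read 19.8, 22.7 and 22.8 FPKM in the agomir libraries and 23.5, 23.4 and 24.4 FPKM in the agomir NC libraries. Agomir replicate 1 was well below the other libraries, and agomir replicates 2 and 3 lay just below the lowest agomir NC library. The log2 fold change was −0.13 (standard error 0.063, 95% interval −0.27 to 0.015), with an unadjusted p of 0.0738 and a Benjamini-Hochberg adjusted p of 0.508 by limma. Without agomir replicate 1 the fold change was −0.063. With median-ratio scaling and with quantile normalization the unadjusted p by limma was 0.0416 and 0.0493.

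The chaperones PSMG1 to PSMG4 assemble the alpha ring in pairs. PSMG4 was the most abundant, with 56.7, 47.3 and 54.5 FPKM in the agomir group and 56.1, 60.6 and 56.5 FPKM in the agomir NC group. PSMG3, its partner, had the lowest mean of the 46 components, just under that of PSME4, which was the lower of the 2 in 5 of the 6 libraries. PSMG3 stood at 10.8, 12.0 and 12.5 FPKM in the agomir group, against 9.90, 11.6 and 12.0 FPKM in the agomir NC group. Agomir replicate 2 was the lowest library for PSMG4 and agomir NC replicate 2 the highest, the reverse of the usual place of the latter, and PSMG3 showed no order by group. The log2 fold change of PSMG4 was −0.13 (95% interval −0.28 to 0.022), the most negative of the family, but −0.053 without agomir replicate 2, and that of PSMG3 was 0.073 (95% interval −0.12 to 0.27), turning to −0.0071 without agomir NC replicate 1. PSMG1 and PSMG2 had log2 fold changes of 0.13 and 0.031.

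Genes that work with the proteasome but carry other names were followed as a list, of which 26 are reported, all of them tested. By limma with Benjamini-Hochberg adjustment 0 of these passed an adjusted p of 0.05. Their median log2 fold change was 0.025. The ubiquitin shuttle RAD23B was higher without overlap and NFE2L1 and UBB were lower without overlap, as were 10.9% and 6.36% of all genes tested. RAD23B had values of 84.5, 81.0 and 83.7 FPKM in the agomir group and 80.4, 73.1 and 79.5 FPKM in the agomir NC group. NFE2L1, the transcription factor that raises proteasome genes when the protease is impaired, stood at 40.1, 38.9 and 40.4 FPKM under the agomir and 40.9, 41.6 and 42.7 FPKM under the agomir NC. In RAD23B and NFE2L1 the gap between the groups was under 1 FPKM, and the log2 fold changes were 0.098 (95% interval −0.0098 to 0.21) and −0.068 (95% interval −0.17 to 0.031).

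UBB and RPS27A, which encode ubiquitin, the tag that the proteasome reads, are given because of their values in agomir replicate 3, which had been seen when they were chosen. UBB stood at 314.1, 307.6 and 105.5 FPKM under the agomir and 332.8, 325.0 and 348.5 FPKM under the agomir NC. RPS27A read 723, 675 and 314 FPKM in the agomir libraries and 747, 674 and 765 FPKM in the agomir NC libraries. In both genes agomir replicate 3 was far below the other 5 libraries, which lay close together. The log2 fold changes of UBB and RPS27A were −0.63 and −0.44 over all libraries and −0.11 and −0.058 without agomir replicate 3. Agomir replicate 3 had 6 genes at more than 1 on the log2 scale below all other libraries, UBB and RPS27A among them, while each of the other libraries had at most 2. Stretches that encode ubiquitin are near-identical copies, so the assignment of reads to each gene is uncertain. The proteasome genes took 0.655% of all FPKM in agomir replicate 3, beside 0.651% and 0.652% in agomir replicates 1 and 2.

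**Figure D4:**
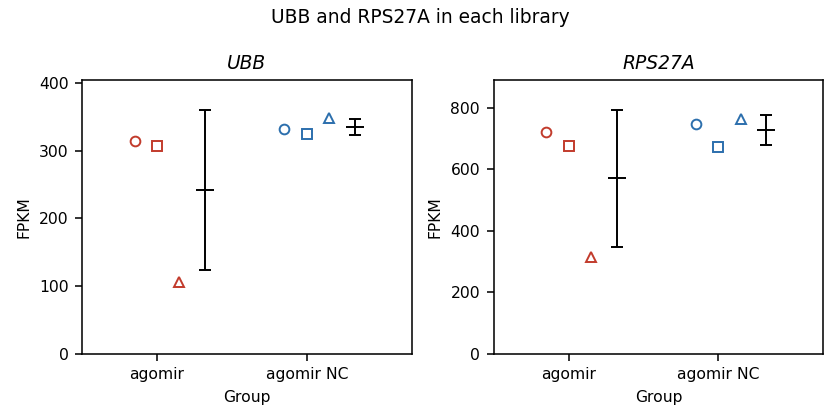
FPKM of UBB and RPS27A in each library (circle, square and triangle for replicates 1, 2 and 3; red, agomir; blue, agomir NC), with the mean and SD of the 3 libraries of a group in black and axes that start at 0. Agomir replicate 3, the red triangle, is the lowest symbol in both panels, at 105.5 FPKM for UBB and 314 FPKM for RPS27A.

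Sums of 3 marker lists separated the groups as well, whereas those of the mesenchymal, endothelial, immune, mural and germ cell lists overlapped. No share is given for sums of genes at large, so this count has nothing to be set against. The 4 preadipocyte markers summed to 10.1, 10.4 and 10.3 FPKM with the agomir and to 9.33, 9.09 and 8.86 FPKM with the agomir NC. The 5 adipocyte markers summed to 3.57, 3.65 and 2.99 FPKM with the agomir and to 4.71, 3.65 and 4.46 FPKM with the agomir NC. The preadipocyte sums were higher with the agomir without overlap, whereas the highest agomir and lowest agomir NC sums of the adipocyte markers were equal to the digits given. ZNF423 and PPARG made up nearly all of the preadipocyte sum, and each was higher without overlap. CD34 went the other way and overlapped, with group means of 0.430 (agomir) and 0.532 FPKM (agomir NC). The paper counts PPARG among the key regulators of adipogenesis, and whether the higher sum marks preadipocytes was not tested. The 2 thymic epithelial markers, nearly all of it CCL25, summed to 1.73, 1.66 and 1.53 FPKM with the agomir and to 1.90, 2.49 and 2.03 FPKM with the agomir NC, lower without overlap. All 3 lists lay far below PSMB5 in level, and their part in the values of PSMB5, PSMC5, PSMD2 and PSMF1 was not tested. The 8 mesenchymal markers, at means of 23736 and 23745 FPKM, overlapped between groups as a sum.

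Of the 17 single markers tested, 1 was higher and 3 were lower at an unadjusted p under 0.05, beside 6.63% and 4.31% of all genes tested, and 0 passed an adjusted p of 0.05 by limma with Benjamini-Hochberg adjustment. PPARG read 3.99, 3.69 and 3.91 FPKM in the agomir libraries and 3.39, 3.34 and 2.96 FPKM in the agomir NC libraries, higher without overlap (log2 fold change 0.23, 95% interval 0.026 to 0.43, unadjusted p 0.0310 by limma). FABP4 had values of 1.82, 2.33 and 1.54 FPKM in the agomir group and 3.57, 2.21 and 2.88 FPKM in the agomir NC group, with overlap (−0.49, 95% interval −0.87 to −0.11, p 0.0160). It carried the lower sum of the adipocyte markers, since PLIN1, the other adipocyte marker tested, had a log2 fold change of 0.14 and overlapped. CCL25 stood at 1.71, 1.66 and 1.51 FPKM under the agomir and 1.90, 2.49 and 2.03 FPKM under the agomir NC (−0.30, 95% interval −0.57 to −0.035, p 0.0307), and its unadjusted p by limma was 0.130 without agomir NC replicate 2. The mesenchymal marker DCN read 2840, 2899 and 2850 FPKM in the agomir libraries and 2991, 3102 and 3248 FPKM in the agomir NC libraries, lower without overlap (−0.12, 95% interval −0.22 to −0.024, p 0.0196), a fold change of the size seen in PSMB5, PSMC5, PSMD2 and PSMF1. With quantile normalization, which sets values by rank within a library, the fold change of DCN was 0. DCN lay at percentile 99.95 of all genes tested, where few genes can exchange ranks, so this 0 cannot show that the difference is absent. Over the 15 alternatives the unadjusted p by limma was above 0.05 in 2 for FABP4, in 3 each for PPARG and CCL25 and in 5 for DCN. Quantile normalization was 1 of the 5 for DCN.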

How the data were processed

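The authors deposited FPKM per gene and library. The submitters' processing notes name fastp, HISAT2, StringTie and the build ARS-UCD1.2, with no versions, and strandedness is not stated. Depth is unknown, since at most 13 of 3906 low genes fell together in 0.002-wide steps of the log2 ratio of library pairs, too few to recover whole reads. Genes averaging 0.5 FPKM or more were tested as log2(FPKM + 0.5) with limma 3.58.1 in R 4.3.3 (variance trend, two-sided, Benjamini-Hochberg adjustment over all genes tested), which had been tested on simulated data. Alternatives were array weights, a replicate block, no trend, each library left out, quantile normalization, median-ratio scaling, pseudocounts of 0.1 or 1, and a filter at 1 FPKM or none. Library values were given for components at an unadjusted p under 0.05, catalytic and immunoproteasome subunits, activators, PSMF1, tissue-restricted forms, the highest and lowest gene of each structural group, and, of the list genes reported, those at an unadjusted p under 0.05. A few list genes, some at such a p, are not reported here, and counts and medians of the lists leave them out. Any other gene was picked with its values in view. The members and lists were chosen with earlier results of these data known. RefSeq annotation of ARS-UCD2.0 matched 49 of 49 symbols and served for names, neighbours and overlaps, and 12 of the 46 components tested overlap another annotated gene (counting PSMD13, which that table places inside NBAS). DDI2 and GBP2 were not analysed here. Protein, promoter and miRNA sequences were not analysed here.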

Additional observations from a re-analysis of the deposited data

How the results depend on the processing

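Over the 15 alternatives, 0 components passed an adjusted p of 0.05 by limma in each, with between 1 and 7 at an unadjusted p under 0.05. Of all genes tested, between 4.47% and 6.88% were higher and between 3.08% and 5.68% lower at that unadjusted p. The adjusted p of PSMB5 ranged from 0.249 to 0.548 by limma with Benjamini-Hochberg adjustment. The median log2 fold change of the components ranged from −0.018 to 0.044. The count of components higher at an unadjusted p under 0.05 was 1 without the variance trend (6.12% of all genes tested). When each library was left out it was from 1 to 4 (from 4.47% to 6.68% of all genes tested). The count lower was 1 with median-ratio scaling (5.68%), 1 with quantile normalization (5.06%), and from 0 to 3 when each library was left out (from 3.08% to 4.80%). Among the 26 partner genes reported the count in either direction was 1 with quantile normalization and 1 with array weights (6.59% of all genes tested were higher and 4.24% lower). It was from 0 to 3 when each library was left out (from 4.47% to 6.68% of all genes tested higher, from 3.08% to 4.80% lower). Among the 11 antigen processing genes reported it was 1 with quantile normalization (5.60% of all genes tested higher, 5.06% lower). The causes of these moves were not tested.

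Libraries of the same replicate number did not deviate together (correlations across genes of −0.051, 0.053 and 0.039), so the number was not taken as a pairing. With the replicate block, 1 component was higher, PSMB5, 0 were lower, and 2 partner genes were at an unadjusted p under 0.05, where 5.94% of all genes tested were higher and 4.20% lower.

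Of 405 log2 fold changes of 27 single genes, 392 kept their sign, 1 was 0 (DCN with quantile normalization) and 12 turned, each when 1 library was left out. The ranges over the libraries left out were −0.18 to 0.023 for PSMB9, −0.027 to 0.080 for PSMB6, −0.044 to 0.023 for PSMC4, −0.0071 to 0.13 for PSMG3, −0.037 to 0.11 for PSMA4, −0.014 to 0.052 for PSMA7, −0.0037 to 0.068 for PSMC3, −0.0093 to 0.11 for PSMD10 and −0.053 to 0.015 for PSME1. With 3 libraries per group and unknown depth, no counting error can be given for any value.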
